A study of Mus musculus with 48 samples.

Results

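Proteasome subunit genes were followed through the conversion of mouse myoblasts into myotubes. The members were all genes whose symbol began with Psma, Psmb, Psmc, Psmd or Psme followed by a number in the annotation of the array platform. They came to 42 of the 18193 genes measured, and each was read from its brightest probe set on average across 48 arrays. C2C12 is an established mouse myoblast cell line that stops dividing, fuses and forms myotubes when serum is withdrawn. Cells were kept in medium with 20% fetal bovine serum and harvested 24 h before induction and at 0 h. They were then changed to medium with 2% horse serum, which induces differentiation, and harvested 0.5, 1, 1.5, 2, 3, 6, 9, 12, 24, 48, 96 and 144 h later. In 2 further groups, 50 µM cycloheximide, an inhibitor of protein synthesis, was given 1 h before induction and the cells were harvested 1 or 3 h after it. Total RNA was hybridised to single-colour Affymetrix mouse arrays, with 3 arrays in each of the 16 groups.

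Each group's arrays came from separate plates grown at successive passages of 1 cell line, so every p-value here measures the spread between such growths. All harvests later than 0 h were in the low-serum medium, so an effect of the new medium cannot be told apart from one of time in culture, and no drug-treated cells were harvested at 0 h. Every comparison against 0 h used the same 3 arrays at 0 h. The arrays measured the whole culture, and fewer cells of a type cannot be told apart from less RNA per cell. Values are log2 array signals, and a difference of 1 is a factor of 2. They carry no detection calls, and the level of one gene's probe set is not set against that of another. All 7 skeletal muscle markers were measured, and their log2 levels summed to 44.63 to 46.92 per array 24 h before induction, 57.54 to 66.57 at 0 h and 80.60 to 83.68 at 48 h. Myog, the transcription factor myogenin, had a group mean of 5.64 at 24 h before induction, 10.15 at 0 h and 12.63 at 48 h, so the 0 h cultures already carried a muscle signal. The summed levels of 5 leukocyte markers ran from 21.18 to 22.07 at 0 h and from 20.34 to 21.23 at 48 h. Those of 4 endothelial markers ran from 13.96 to 14.0 and from 14.12 to 15.53, and those of the 2 measured of 4 adipocyte markers from 6.58 to 6.92 and from 6.53 to 7.05. The defining markers Ptprc, Cdh5 and Adipoq had group means of at most 3.53, 3.56 and 3.16, on a scale whose lowest value was 2.33.

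The proteasome is the chamber in which cells degrade proteins tagged with ubiquitin. Its barrel-shaped core particle has outer rings of alpha subunits, which form the gate, and inner rings of beta subunits, a few of which cut peptide bonds. A regulatory particle caps the barrel: its base holds a ring of ATPases that unfold substrates, and its lid removes the ubiquitin chain. Other caps, the activators encoded by Psme genes, open the core without using ATP, and the inducible beta subunits replace the standard catalytic ones in cells that respond to interferon. In skeletal muscle the ubiquitin and proteasome system is best known for breaking down contractile proteins during atrophy, and it also turns over regulators of the myogenic programme.

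The promoters shown are those of the 6 members with the largest called rises at 48 h and of Psme1, the one member that fell then. Each is the stretch of 160 bases just before the annotated start in RefSeq, build GRCm38.p6, written 5′ to 3′ on the gene's strand. Capitals mark the antioxidant response element core (TGANNNNGC), which the CNC family factors Nfe2l1 and Nfe2l2 recognise, and the CCAAT box, each on either strand.
Psme3, chr11:101316053-101316212, plus strand: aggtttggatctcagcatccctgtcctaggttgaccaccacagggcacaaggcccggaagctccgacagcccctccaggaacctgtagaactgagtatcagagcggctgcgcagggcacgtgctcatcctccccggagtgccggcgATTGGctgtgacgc
Psmc5, chr11:106256025-106256184, plus strand: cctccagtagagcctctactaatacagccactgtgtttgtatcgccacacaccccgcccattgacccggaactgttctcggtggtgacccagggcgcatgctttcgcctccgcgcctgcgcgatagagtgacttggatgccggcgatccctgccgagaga
Psmd13, chr7:140882234-140882393, plus strand: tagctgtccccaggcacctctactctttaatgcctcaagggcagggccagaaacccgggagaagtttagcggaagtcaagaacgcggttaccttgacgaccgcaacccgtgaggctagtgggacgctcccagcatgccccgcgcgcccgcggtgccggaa
Psmb3, chr11:97703274-97703433, plus strand: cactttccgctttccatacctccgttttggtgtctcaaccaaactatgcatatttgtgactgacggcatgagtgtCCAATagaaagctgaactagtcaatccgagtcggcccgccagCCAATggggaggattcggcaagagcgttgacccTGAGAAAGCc
Psmc4, chr7:28050093-28050252, minus strand: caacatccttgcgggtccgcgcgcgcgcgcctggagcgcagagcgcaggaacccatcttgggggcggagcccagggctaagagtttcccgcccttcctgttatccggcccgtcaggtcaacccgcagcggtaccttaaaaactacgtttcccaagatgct
Psmb5, chr14:54617996-54618155, minus strand: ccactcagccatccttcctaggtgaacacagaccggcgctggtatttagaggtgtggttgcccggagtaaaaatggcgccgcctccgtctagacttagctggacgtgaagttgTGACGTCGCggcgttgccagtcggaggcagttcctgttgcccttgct
Psme1, chr14:55578334-55578493, plus strand: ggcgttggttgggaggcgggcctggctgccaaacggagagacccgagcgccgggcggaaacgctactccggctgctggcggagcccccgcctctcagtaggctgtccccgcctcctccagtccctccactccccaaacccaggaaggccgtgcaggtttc
The core motif began 10 bases before the start in Psmb3 and 47 in Psmb5, and in Psmd13 it lay just after the start, outside the printed stretch. Psmb3 also held CCAAT 85 and 43 bases before its start, and Psme3 held it on the other strand 14 bases before its start. The stretches of Psmc5, Psmc4 and Psme1 held neither motif. RefSeq windows of 300 bases, from 250 before to 50 after the start, were matched for 35 of the 42 members, in 37 windows. The antioxidant response element core was in 21 of them (56.8%), against 41.3% of all 32851 windows. CCAAT was in 14 (37.8%, against 37.4%), the E-box CANNTG in 23 (62.2%, against 72.3%) and the gamma-activated site TTCNNNGAA in 2 (5.41%, against 8.3%). Of the 13 members with a window among the 14 that rose at all of 24, 48, 96 and 144 h, 5 held the core, and of the 7 with a window among the 11 never called at those times, 6 did. These shares describe letters in the windows only, and short motifs can overlap.

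Before induction, while the cells stayed in growth medium, many subunits lost signal. Between 24 h before induction and 0 h, 17 members fell and 1 rose at an adjusted p under 0.05 (limma, Benjamini-Hochberg over 18193 genes), against 13.1% of all genes that passed in either direction, 5.86% as fallen and 7.26% as risen. The median difference of the members was -0.28 and that of all genes 0.01. In 24 members all 3 arrays at 0 h lay below all 3 arrays of the day before, and in 1 they lay above. Such counts, here and below, were made for the members only, so no share of all genes stands beside them. The split between risen and fallen members depended on the scale: it was 1 to 19 after another round of quantile normalization, 1 to 20 with each array centred on its median and 3 to 8 with arrays centred on housekeeping genes, a centring that moved the median gene by 0.13.

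Psme3, the nuclear proteasome activator PA28 gamma, read 8.50, 7.92 and 8.05 on the arrays of 24 h before and 7.61, 7.22 and 7.52 at 0 h. It fell by 1.63-fold, a log2 difference of -0.71 ± 0.12 (SE, limma adjusted p = 7.65e-05, n = 3 and 3), and the groups did not overlap. Psmd14, the lid enzyme that cuts ubiquitin from substrates, read 11.17, 11.21 and 11.21 and then 10.75, 10.61 and 10.71. Its triplicates were tight, and the difference of -0.51 ± 0.07 (SE, limma adjusted p = 3.14e-06) was a 1.42-fold fall. Psmd13, another lid subunit, read 9.55, 9.49 and 9.43 and then 9.02, 8.93 and 8.95, a difference of -0.52 ± 0.12 (limma adjusted p = 0.00279). Among the alpha subunits of the outer ring, Psma1 read 10.29, 10.20 and 10.34 and then 9.66, 9.78 and 9.93 (-0.49 ± 0.10, limma adjusted p = 8.02e-04). Psma7 read 11.24, 11.14 and 11.19 and then 10.68, 10.67 and 10.85 (-0.46 ± 0.13, limma adjusted p = 0.0100). In both, the arrays of the 2 harvests were fully apart. The ATPase Psmc5 read 10.49, 10.11 and 10.05 and then 9.90, 9.59 and 9.46, a difference of -0.56 ± 0.18 (limma adjusted p = 0.0303). Calls for Psmc5 and Psma7 rested on few arrays: without replicate 1 of 24 h before, the adjusted p was 0.239 for Psmc5 and 0.0572 for Psma7. Without replicate 2 of 0 h it was 0.0999 for Psmc5 and 0.0501 for Psma7, and without replicate 3 of 0 h it was 0.141 for Psmc5. The other falls ran from -0.43 in Psma4, Psmc1 and Psmd1 to -0.25 in the ATPase Psmc2. The call of Psmc2 was lost without replicate 1 or 3 of 24 h before (0.0916 and 0.197) or replicate 1 or 2 of 0 h (0.136 and 0.180). That of Psmd2 was lost without replicate 1 or 2 of 24 h before (0.0636 and 0.117) or replicate 3 of 0 h (0.144). Psmd5 lost its call without replicate 1 of 24 h before (0.124) or replicate 2 of 0 h (0.0584), and Psma2 without replicate 2 of 0 h (0.0965). Of the 18 calls, 12 were kept whichever array was left out, and 6 (Psma1, Psma4, Psmc1, Psmd1, Psmd14 and Psme1) in every one of the 15 other settings.

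By role, 5 of the 7 alpha subunits of the outer ring fell, as did 3 of the 6 base ATPases, 4 of the 8 lid subunits, the base scaffolds Psmd1 and Psmd2, and the base chaperone Psmd5. None of the 3 standard catalytic subunits passed: the differences were -0.26 for Psmb5, -0.28 for Psmb6 and -0.25 for Psmb7. Of the other standard beta subunits only Psmb3 did, with a difference of -0.42. The one riser was Psme1, which encodes the alpha subunit of the cytoplasmic activator PA28. It read 8.61, 9.01 and 8.70 and then 9.55, 9.55 and 9.18, a 1.57-fold rise (0.65 ± 0.15, limma adjusted p = 0.00255) with no overlap between the arrays. Psme1 thus moved against Psme3, the gene of the related nuclear activator.

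**Figure D1:**
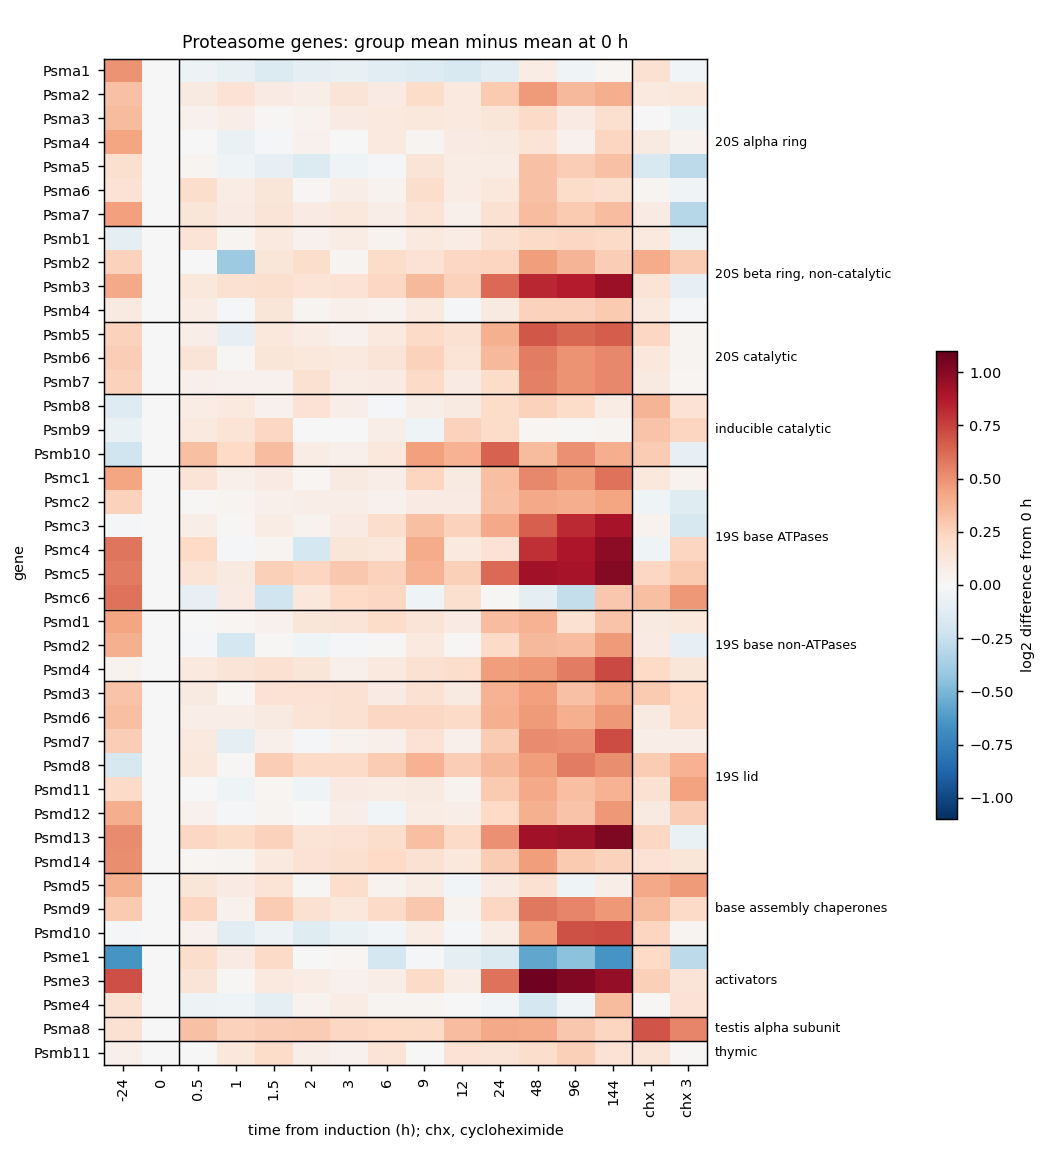
Mean log2 level of each of the 42 members minus its mean at 0 h, with rows grouped by role, columns for the 16 groups of 3 arrays and colour for the difference. The columns from 24 h on are mostly above 0, with a median of 0.42 at 48 h, and Psme1 is the row that runs the other way.

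From 0.5 to 12 h after the change of medium, no member passed the test against 0 h at any of the 8 harvests. The counts of members above 0 were 35, 29, 36, 34, 38, 36, 37 and 37 of 42 at 0.5, 1, 1.5, 2, 3, 6, 9 and 12 h, all read against the same 0 h arrays. The median differences were between 0.03 at 1 h and 0.16 at 9 h. With limma, 3, 0, 4, 3, 2, 4, 11 and 6 members had an unadjusted p under 0.05. As a share, this was below that of all genes at the same unadjusted cutoff at 1, 1.5, 2 and 3 h. It was above that of all genes at 0.5, 6, 9 and 12 h. At the adjusted cutoff, which no member passed, the shares of all genes called were 0.0385%, 0.192%, 0.423%, 0.517%, 0.390%, 0.506%, 1.36% and 2.82%. The lowest adjusted p of a member was 0.0670, for the lid subunit Psmd8 at 9 h. Psmd8 read 10.86, 10.73 and 10.53 at 0 h and 11.14, 11.25 and 10.88 at 9 h, so its groups did not overlap.

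Arrays with the same replicate number deviated together between 0 h and 9 h, and the fit with the replicate number as a block called 6 members at 9 h, all risen, and 4.12% of all genes. They were Psmd8 (0.38, adjusted p = 0.0202 with the block), Psmc5 (0.38, 0.0159), Psmc3 (0.33, 0.0278), Psmb3 (0.36, 0.0287), Psmd6 (0.23, 0.0242) and the inducible subunit Psmb10 (0.45, 0.0487). Psmd6, a lid subunit, also passed with the block at 6 and 12 h. Over the 8 harvests the block called 6 members and 10.3% of all genes at 1 or more of them. Without the block the numbers were 0 members and 3.96%. Another quantile normalization gave 1 member, and centring on housekeeping genes gave 3, each against about 4% of all genes. Without replicate 1 of 0 h, 1 member passed.

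**Figure D2:**
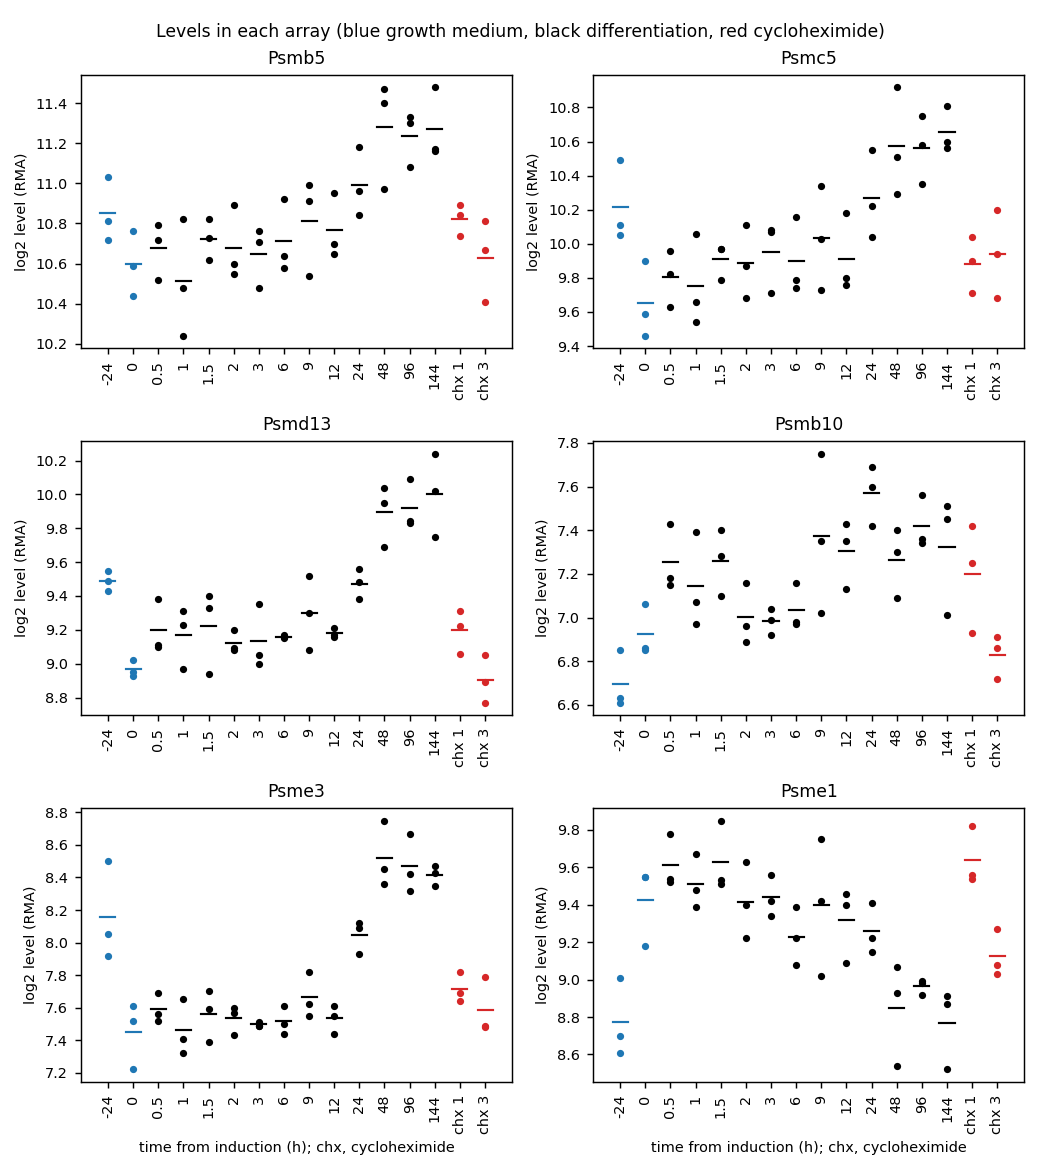
Log2 level of Psmb5, Psmc5, Psmd13, Psmb10, Psme3 and Psme1 on each array by harvest. Points are arrays (blue growth medium, black differentiation medium, red cycloheximide), and each short horizontal bar is the mean of a group's 3 arrays. Psme3 climbs from 7.61, 7.22 and 7.52 at 0 h to 8.75, 8.45 and 8.36 at 48 h, while Psme1 descends from 9.55, 9.55 and 9.18 to 8.93, 9.07 and 8.54.

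The rise passed the test at 24 h. There 17 members had risen against 0 h and none had fallen, against 14.0% of all genes called in either direction and 6.56% called as risen (7.42% as fallen). The median difference was 0.23 for the members and 0.05 for all genes, and in 22 members the arrays of 24 h lay wholly above those of 0 h. Without replicate 2 of 0 h the count was 11. At 48 h, 28 members had risen and 1 had fallen, against 12.4% and 14.3% of all genes (26.7% in either direction), with a median of 0.42 against 0.06. In 31 members the 48 h arrays lay above the 0 h arrays, in 1 below and in 10 they overlapped. At 96 h, 24 had risen and 1 had fallen (32.6% of all genes called), with a median of 0.33, and at 144 h 26 had risen and 1 had fallen (28.4% called), with a median of 0.40. In all, 30 members rose at 1 or more of these 4 times, 14 at all of them, and 11 never passed. These counts over the 4 times were not made for all genes, so they have no background share. Of the calls at 24, 48, 96 and 144 h, 10 of 17, 18 of 29, 18 of 25 and 20 of 27 were kept whichever array was left out. An F-test over the 12 differentiation harvests called 25 members, and 38.2% of all genes.

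Neighbouring harvests were compared as well. No member passed between 48 and 96 h or between 96 and 144 h, where 4.64% and 0.313% of all genes were called. With limma, 2 members had an unadjusted p under 0.05 in each case, against 14.6% and 8.03% of all genes. Between 12 and 24 h only Psme3 passed without the replicate block (0.52 ± 0.12, limma adjusted p = 0.0196, 1.34% of genes called). Same-numbered arrays deviated together there, and the block called 5 members, all risen (3.61% of genes): Psme3, Psmb3, Psmc5, Psmd11 and Psmd4. Between 24 and 48 h Psme3 (0.47 ± 0.12, limma adjusted p = 0.0204) and Psmd13 (0.42 ± 0.12, limma adjusted p = 0.0494) passed, with 3.89% of genes called. Same-numbered arrays deviated together there too, and with the block 6 had risen and 1 had fallen (8.10% of genes), and Psme1 was the one that fell (-0.41, adjusted p = 0.0183 with the block). Of the 14 untreated groups, 0 h held the lowest mean for 19 members, and the highest mean fell at 144 h for 15, at 48 h for 12 and at 24 h before induction for 8. The lowest and highest harvests were not counted for all genes.

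In the core particle, the inner beta rings are described first. Psmb3, a structural beta subunit, read 10.90, 10.78 and 10.64 at 0 h, 11.50, 11.31 and 11.35 at 24 h, 11.74, 11.57 and 11.49 at 48 h, 11.71, 11.64 and 11.54 at 96 h and 11.52, 11.83 and 11.79 at 144 h. The later groups were all above 0 h, by 0.61 ± 0.11 (limma adjusted p = 7.56e-05), 0.83 ± 0.11 (1.49e-07) and 0.94 ± 0.11 (5.12e-09). At 144 h this was 1.92-fold. Its second probe set gave 0.82 at 48 h. Psmb5, the chymotrypsin-like catalytic subunit, read 10.76, 10.59 and 10.44 at 0 h, 11.18, 10.96 and 10.84 at 24 h, 11.47, 11.40 and 10.97 at 48 h, 11.33, 11.30 and 11.08 at 96 h and 11.16, 11.48 and 11.17 at 144 h. It was 1.60-fold higher at 48 h (0.68 ± 0.15, limma adjusted p = 4.74e-04). At 24 h the difference of 0.40 had an adjusted p of 0.0666, or 0.00296 with the replicate block, although the groups did not overlap. Psmb6, the caspase-like catalytic subunit, read 10.83, 10.83 and 10.79 at 0 h, 11.15, 11.19 and 11.19 at 24 h and 11.54, 11.34 and 11.26 at 48 h. It rose by 0.56 ± 0.10 at 48 h (limma adjusted p = 2.39e-05), a factor of 1.48, and kept non-overlapping arrays at 96 h (11.36, 11.27 and 11.29) and 144 h (11.12, 11.43 and 11.51).

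Psmb7, the trypsin-like catalytic subunit, had a difference as large as that of Psmb6 and no call. It read 11.45, 10.69 and 10.67 at 0 h, 11.94, 11.32 and 11.22 at 48 h and 11.64, 11.52 and 11.24 at 144 h, and replicate 1 was the highest in each of these groups. The difference of 0.56 ± 0.27 at 48 h had an adjusted p of 0.135, and 1.15e-04 with the replicate block. At 96 h the block gave 3.91e-04, where the arrays read 11.84, 11.35 and 11.11. Of the 7 alpha subunits, 1, 5, 1 and 4 had risen at 24, 48, 96 and 144 h, with a median of 0.31 at 48 h. Psma2 was the one called at each time, although its 24 h call (0.29, 0.0265) was lost without replicate 1 or 2 of 0 h (0.0531 and 0.126) or replicate 1 or 3 of 24 h (0.0676 and 0.0936). It read 11.55, 11.44 and 11.61 at 0 h and 11.98, 11.99 and 12.04 at 48 h (0.47 ± 0.09, limma adjusted p = 1.16e-04). Psma1, which had fallen before induction, read 9.90, 9.75 and 9.95 at 48 h against 9.66, 9.78 and 9.93 at 0 h (0.07, not called). With the block, Psma5, Psma7 and Psmb1 also passed at 96 h (adjusted p 0.0151, 0.00998 and 0.0380). The other 4 alpha calls at 48 h were each lost in several settings. After another quantile normalization the adjusted p was 0.129 for Psma3, 0.0795 for Psma5, 0.0523 for Psma6 and 0.0870 for Psma7, and without replicate 1 of 0 h it was 0.0859, 0.0540, 0.0575 and 0.107. Without replicate 2 of 0 h it was 0.0648 for Psma3, 0.0652 for Psma5 and 0.115 for Psma7. Without replicate 1 of 48 h it was 0.0637 for Psma3, 0.0585 for Psma6 and 0.0753 for Psma7, and without replicate 2 it was 0.0539 for Psma6 and 0.107 for Psma7. Without replicate 3 of 48 h it was 0.0597 for Psma3, 0.0897 for Psma5 and 0.0633 for Psma7. The rise of Psma3 at 48 h (0.21) and 144 h (0.18) turned to -0.04 and -0.09 when all its probe sets were averaged.

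The median differences of the base ATPases at 24, 48, 96 and 144 h were 0.33, 0.60, 0.65 and 0.76. Of the 6, 4 had risen at 24 h and 5 at each later time, Psmc6 being the exception. Psmc5 read 9.90, 9.59 and 9.46 at 0 h, 10.55, 10.22 and 10.04 at 24 h, 10.92, 10.51 and 10.29 at 48 h, 10.75, 10.58 and 10.35 at 96 h and 10.60, 10.81 and 10.56 at 144 h. The arrays never overlapped those of 0 h at these times, and the difference grew from 0.61 ± 0.18 (limma adjusted p = 0.0175) to 1.01 ± 0.18 at 144 h (2.59e-05), a factor of 2.01. The 24 h call was lost without replicate 2 of 0 h (0.0626), replicate 3 of 0 h (0.106) or replicate 1 of 24 h (0.133). Psmc3 read 11.23, 11.14 and 11.16 at 0 h, 11.60, 11.61 and 11.58 at 24 h, 11.92, 11.88 and 11.71 at 48 h, 12.17, 11.96 and 11.87 at 96 h and 11.99, 12.23 and 12.06 at 144 h. Its difference was 0.92 ± 0.10 at 144 h (limma adjusted p = 1.08e-09), a factor of 1.89. Unlike Psmc5, Psmc3 had not fallen before induction (0.02). Psmc4 read 9.75, 9.66 and 9.55 at 0 h, 10.76, 10.28 and 10.31 at 48 h, 10.83, 10.53 and 10.26 at 96 h and 10.25, 10.77 and 10.86 at 144 h. It was apart from 0 h at these times, by 0.80 ± 0.21 at 48 h (limma adjusted p = 0.00433) and 0.98 ± 0.21 at 144 h (4.02e-04). Psmc6 read 9.45, 9.54 and 9.93 at 0 h, 9.51, 9.10 and 10.02 at 48 h and 10.66, 9.51 and 9.65 at 144 h, a spread within which no difference was called.

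The lid rose almost as a whole: 5 of its 8 measured subunits at 24 h and 7 at 48, 96 and 144 h, with medians of 0.33, 0.46, 0.36 and 0.48. Psmd13 read 9.02, 8.93 and 8.95 at 0 h, 9.48, 9.56 and 9.38 at 24 h, 10.04, 9.95 and 9.69 at 48 h, 9.84, 10.09 and 9.83 at 96 h and 9.75, 10.24 and 10.02 at 144 h. All later arrays were above 0 h. The difference was 0.92 ± 0.12 at 48 h (limma adjusted p = 3.36e-07) and 1.03 ± 0.12 at 144 h (1.74e-08), a factor of 2.05, and the second probe set gave 0.89 at 48 h. Averaging the probe sets reduced the earlier differences of Psmd13, to -0.26 at 0 h against 24 h before (adjusted p = 0.117) and 0.29 at 24 h (0.0632). Psmd14, the deubiquitinating subunit, read 11.06, 10.84 and 11.01 at 24 h, 11.20, 11.07 and 11.16 at 48 h, 10.98, 10.95 and 11.02 at 96 h and 10.95, 10.99 and 10.87 at 144 h. Its rise of 0.46 ± 0.07 at 48 h (limma adjusted p = 5.87e-06) was followed by 0.29 at 96 h and 0.25 at 144 h, with no overlap with 0 h at any of these times. The 24 h call of Psmd14 (0.28, 0.00709) was lost without replicate 2 of 0 h (0.0533) or replicate 1 of 24 h (0.0650). Psmd3, the remaining lid subunit, was 0.45 above 0 h at 48 h (adjusted p = 0.0641). With the replicate block its adjusted p was 0.00206 at 24 h, 1.41e-04 at 48 h and 0.00349 at 96 h. Psmd12 at 24 h (0.22) likewise passed only with the block (0.0284).

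Of the other base subunits, the ubiquitin receptor Psmd4 read 10.85, 10.52 and 10.49 at 0 h, 11.16, 11.09 and 10.99 at 24 h, 11.25, 11.09 and 10.95 at 48 h and 11.29, 11.49 and 11.27 at 144 h. Its arrays were above those of 0 h throughout, by 0.46 ± 0.10 at 24 h (limma adjusted p = 0.00153) and 0.73 at 144 h (3.28e-07). The scaffold Psmd1 rose at 24, 48 and 144 h and Psmd2 at 48, 96 and 144 h, by at most 0.46. Each call of Psmd1, and those of Psmd2 at 48 and 96 h, was lost with some single array left out. The chaperones of base assembly went separate ways. Psmd10, also known as the oncoprotein gankyrin, read 8.03, 7.84 and 8.20 at 0 h, 8.59, 8.20 and 8.69 at 48 h, 8.90, 8.39 and 8.89 at 96 h and 8.60, 8.82 and 8.84 at 144 h. It rose by 0.70 ± 0.16 at 96 h (limma adjusted p = 5.24e-04) and 0.73 ± 0.16 at 144 h (3.46e-04), where no array overlapped 0 h. At 48 h the groups overlapped, and the call (0.47, 0.0235) was lost without either of replicates 1 and 2 of 0 h (0.0506 and 0.122) or replicates 1 and 3 of 48 h (0.0862 and 0.118). Psmd9 passed at 48 and 96 h, but each call was lost with some single array left out. Psmd5, which had fallen before induction, was not called against 0 h at any later time. Its differences from 24 to 144 h lay between -0.04 and 0.17.

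The inducible catalytic subunits did not move as a group. Psmb10 read 6.85, 6.61 and 6.63 at 24 h before induction, 7.06, 6.86 and 6.85 at 0 h, 7.60, 7.69 and 7.42 at 24 h, 7.40, 7.30 and 7.09 at 48 h, 7.34, 7.56 and 7.36 at 96 h and 7.01, 7.51 and 7.45 at 144 h. The 24 h value was the largest difference of any member at that time, 0.65 ± 0.15 (limma adjusted p = 0.00171), or 1.57-fold. Psmb10 was also called at 96 h (0.50, 0.00708) and 144 h (0.40, 0.0330) but not at 48 h (0.34, 0.0771), where the block gave 0.0475. The 96 h call was lost without replicate 2 of 96 h (0.0512). The 144 h call was lost without replicate 2 or 3 of 0 h (0.101 and 0.110) or of 144 h (0.187 and 0.142), and there the groups overlapped. Psmb8 read 4.21, 4.07 and 3.92 at 0 h, 4.32, 4.22 and 4.28 at 24 h, 4.34, 4.61 and 4.01 at 48 h, 4.39, 4.14 and 4.27 at 96 h and 3.97, 4.42 and 4.04 at 144 h. Psmb9 read 3.84, 4.03 and 3.72 at 0 h, 4.16, 3.97 and 4.06 at 24 h, 3.77, 4.0 and 3.87 at 48 h, 3.76, 4.20 and 3.65 at 96 h and 3.95, 3.79 and 3.93 at 144 h. Neither was called at any time. From 24 to 144 h the differences from 0 h were at most 0.25 for Psmb8 and 0.20 for Psmb9.

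The activators diverged. Psme3 read 7.61, 7.22 and 7.52 at 0 h, 7.61, 7.44 and 7.55 at 12 h, 8.09, 7.93 and 8.12 at 24 h, 8.75, 8.45 and 8.36 at 48 h, 8.67, 8.42 and 8.32 at 96 h and 8.35, 8.47 and 8.43 at 144 h. The arrays from 24 h on lay above all those of 0 h. The rise was 0.60 ± 0.12 at 24 h (limma adjusted p = 7.72e-04) and 1.07 ± 0.12 at 48 h (1.57e-08), a factor of 2.10 and the largest of any member at 48 h. Psme3 had 2 dimmer probe sets, with mean levels of 5.01 and 3.48, the latter near the low end of the scale. They gave 0.36 ± 0.41 and 0.21 ± 0.10 at 48 h, neither called, and averaging all of them reduced the difference to -0.31 before induction (adjusted p = 0.276), 0.23 at 24 h (0.387) and 0.34 at 144 h (0.147). Psme1 read 9.55, 9.55 and 9.18 at 0 h, 9.40, 9.46 and 9.09 at 12 h, 9.15, 9.41 and 9.22 at 24 h, 8.93, 9.07 and 8.54 at 48 h, 8.92, 8.98 and 8.99 at 96 h and 8.52, 8.91 and 8.87 at 144 h. It overlapped 0 h at 24 h and lay wholly below it from 48 h on. The fall was -0.58 ± 0.15 at 48 h (limma adjusted p = 0.00431), -0.46 ± 0.15 at 96 h (0.0202) and -0.66 ± 0.15 at 144 h (9.54e-04), where it was 1.58-fold. The 48 h call was lost without replicate 3 of 48 h (0.0541), and the 96 h call without replicate 1 or 2 of 0 h (0.0842 and 0.0844) or replicate 1 of 96 h (0.0546). Psme1 was the only member that fell at any of these times.

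Psme4, the large nuclear activator PA200, was not called against 0 h at any time. It read 9.46, 9.50 and 9.75 at 0 h, 9.49, 9.02 and 9.63 at 48 h and 10.38, 9.65 and 9.72 at 144 h. Between 48 and 144 h it rose by 0.54 ± 0.16 (limma adjusted p = 0.0205) as the only member called there, among 10.3% of all genes. That call was lost without replicate 1 of 144 h (0.286) or replicate 2 of 48 h (0.230). The members known from other tissues had values near the low end of the scale. Psma8, the testis alpha subunit, read 3.21, 3.09 and 3.15 at 0 h, 3.77, 3.48 and 3.45 at 24 h and 3.37, 3.95 and 3.34 at 48 h. It was called at 24 h (0.42, 0.0363) and 48 h (0.41, 0.0248). Without replicate 1 of 24 h the adjusted p was 0.200, and without replicate 2 of 48 h it was 0.344. Of the arrays left out in turn, the 24 h call held only without replicate 3 of 24 h, and the 48 h call was also lost without replicate 2 or 3 of 0 h. Psmb11, the thymus catalytic subunit, read 3.16, 3.37 and 3.30 at 0 h and 3.37, 3.69 and 3.55 at 96 h (0.26 ± 0.10, limma adjusted p = 0.0380), and was called at no other time. Its call was lost without replicate 1 or 3 of 0 h (0.166 and 0.0715) or replicate 2 or 3 of 96 h (0.238 and 0.0775).

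Because 0 h was the lowest harvest for many subunits, the later levels were also read against 24 h before induction. At 48 h, 12 members were higher and 3 lower than in growing cells, with a median of 0.17 against 0.08 for all genes. The share of members called, 35.7%, was close to the 30.1% of all genes. The higher ones were led by Psmc3 (0.68), Psmd8 (0.64) and Psmb10 (0.57), and included Psmb5 (0.42), Psmd13 (0.40) and Psme3 (0.36). Psmc3 had read 11.14, 11.05 and 11.28 in growing cells, and Psmd8 10.56, 10.56 and 10.48, with 11.17, 11.37 and 10.98 at 48 h. The lower ones were Psmc6 (-0.70), Psma1 (-0.41) and Psma4 (-0.27). Of the 15 calls, 6 were kept whichever array was left out. Those of Psmb5, Psmd13, Psme3, Psmc6 and Psma4 were each lost with some array left out. In 15 members the 48 h arrays were all above those of 24 h before, and in 7 all below. At 144 h the counts were 11 higher and 4 lower, or 35.7% of members, again close to the 34.8% of all genes. The medians were 0.18 for the members and 0.06 for all genes. There Psmc3 (0.94), Psmd10 (0.75), Psmd4 (0.69) and Psmd8 (0.69) were highest and Psma1 (-0.47), Psmd5 (-0.32), Psmd14 (-0.26) and Psma3 (-0.18) were the 4 that were lower. Of these 15 calls at 144 h, 10 were kept whichever array was left out, and those of Psmd5 and Psma3 were not. Centred on housekeeping genes, the splits were 17 to 1 at 48 h and 20 to 1 at 144 h, a centring that moved the median gene by 0.12 at 144 h. The 48 h count was 7 without replicate 1 of 48 h and 9 without replicate 2 of 48 h.

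With cycloheximide, the number of subunits called and their direction depended on the scale. The 6 drug-treated arrays did not share the distribution of the other 42: their mean values were 5.24 to 5.26, against 5.02 to 5.05. The median gene was 0.20 higher with the drug at 1 h and 0.19 higher at 3 h on the deposited values, and -0.01 at both after another round of quantile normalization. At 1 h, 3 members had risen and none had fallen as deposited (24.6% of all genes called), with a median of 0.12 for the members. On the deposited values 10 members had an unadjusted p under 0.05 by limma, against 36.9% of all genes. After quantile normalization 0 were called (6.79% of genes). At 3 h, 2 had risen and 2 had fallen as deposited (34.4% of genes) with a median of -0.02, and 1 had risen and 10 had fallen after quantile normalization (24.0%). Centred on the array median, 0 had risen and 17 had fallen at 1 h, and 0 and 27 at 3 h. That median over genes was 5.53 to 5.6 on drug-treated arrays and 5.11 to 5.21 on the others. Centred on housekeeping genes, the counts were 0 and 4 at 1 h and 2 and 3 at 3 h. The shares of all genes called with these centrings are not given here. With housekeeping centring, 9 members and 21.5% of all genes had an unadjusted limma p under 0.05 at 1 h, and 10 and 38.4% at 3 h. With the block, 9 members and 41.0% of all genes were called at 3 h on the deposited values, where same-numbered arrays deviated together.

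Psmd11, a lid subunit that helps hold the regulatory particle to the core, read 11.37, 11.38 and 11.43 in untreated cells at 3 h and 11.74, 11.69 and 11.80 with the drug. It rose by 0.35 ± 0.07 as deposited (limma adjusted p = 2.56e-04) and by 0.32 after quantile normalization (7.49e-04), without overlap, but lay at -0.06 with arrays centred on their medians. At 1 h Psmd11 read 11.29, 11.20 and 11.27 untreated and 11.42, 11.45 and 11.53 with the drug, and its difference of 0.21 ± 0.07 (limma adjusted p = 0.0324) was 0.09 after quantile normalization (0.524). Psma7 read 10.73, 10.90 and 10.95 untreated and 10.26, 10.43 and 10.59 with the drug at 3 h, a fall without overlap on both scales (-0.43 ± 0.13, limma adjusted p = 0.00698, and -0.54, 0.00116). Without replicate 1 of the treated arrays the deposited value was -0.35 (0.0585). Psmc3 read 11.23, 11.41 and 11.16 untreated and 11.06, 11.10 and 10.85 with the drug (-0.27 ± 0.10, limma adjusted p = 0.0326, and -0.34, 0.00493). Its deposited call was lost without replicate 1 or 2 of the untreated arrays (0.0516 and 0.179) or replicate 3 of the treated ones (0.187). Psmd5 read 8.98, 9.22 and 8.98 untreated and 9.39, 9.40 and 9.23 with the drug at 3 h, and its deposited rise of 0.28 (0.0429) was 0.05 after quantile normalization (0.812). At 1 h it read 9.07, 9.00 and 8.80 untreated and 9.12, 9.41 and 9.36 with the drug, apart as deposited (0.34, 0.0194) and not called after quantile normalization (0.10, 0.693). The deposited 1 h call of Psmd11 was lost without replicate 2 or 3 of the untreated arrays (0.114 and 0.0645) or of the treated ones (0.0644 and 0.119). That of Psmd5 was lost at 1 h without replicate 3 of the untreated arrays (0.127) or replicate 2 or 3 of the treated ones (0.0980 and 0.0704). At 3 h it was lost without replicate 1 or 3 of the untreated arrays (0.147 and 0.133) or replicate 1 or 2 of the treated ones (0.122 and 0.128).

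The falls called at 3 h only after quantile normalization included Psme1 (-0.57), Psmb10 (-0.51), Psmd13 (-0.50) and Psmb3 (-0.34). Psme1 read 9.42, 9.56 and 9.34 untreated and 9.03, 9.27 and 9.08 with the drug, all 3 below the untreated arrays as deposited. At 1 h the largest deposited difference among the called members was in Psma8, which read 3.49, 3.25 and 3.47 untreated and 4.0, 3.71 and 3.79 with the drug (0.43 ± 0.14, limma adjusted p = 0.0189), and 0.28 after quantile normalization (0.188). Its deposited call was lost without replicate 2 of the untreated arrays (0.10) or replicate 1 of the treated ones (0.101). Psmb2 had a larger difference at 1 h, 0.81 ± 0.31, that was not called (limma adjusted p = 0.0517): it read 9.98, 8.01 and 9.25 untreated and 10.34, 9.72 and 9.61 with the drug, so that the groups overlapped. The interaction test by limma called no member's response as different between 3 h and 1 h, and called 4.29% of all genes. The lowest adjusted p of a member was 0.236. At an unadjusted p under 0.05 by limma there were 3 members, a smaller share than among all genes. The replicate block and the housekeeping centring each called 1 member there. Leaving out single arrays moved the 1 h count between 1 and 7: it was 7 without replicate 1 of the untreated arrays and 1 without replicate 2 or 3 of them or replicate 2 of the treated ones. The 3 h count was 2 without replicate 1 of the untreated arrays.

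**Figure D3:**
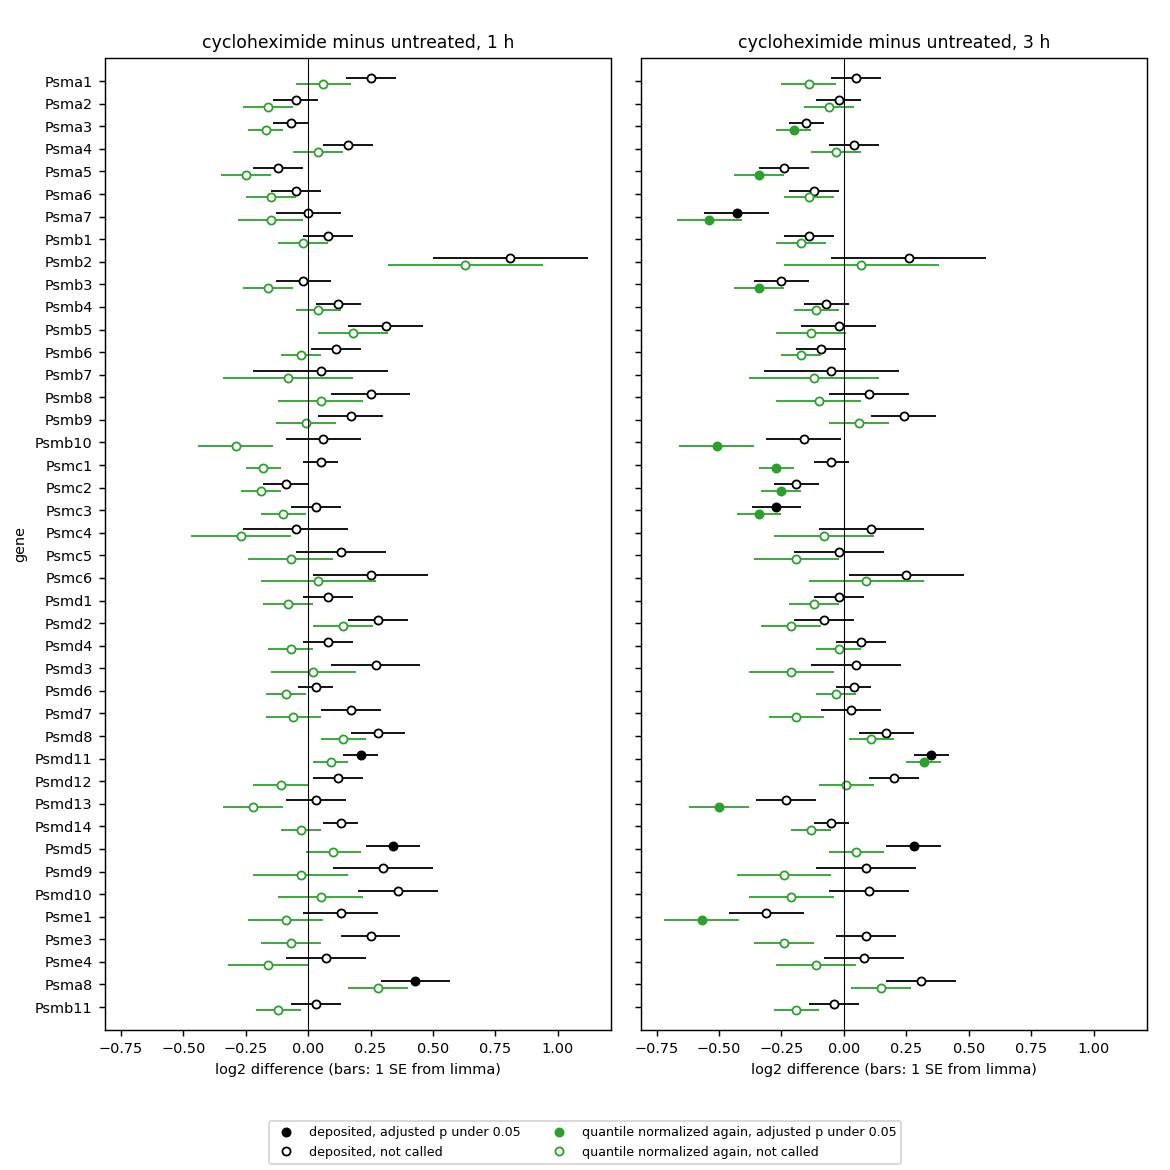
Log2 difference of each member between cycloheximide and untreated cells at 1 h (left) and 3 h (right), as deposited (black) and after another round of quantile normalization (green); filled symbols have a limma adjusted p under 0.05. Psmd11 at 3 h is the one rise filled on both scales (0.35 and 0.32), and Psma7 and Psmc3 are filled falls on both.

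Genes that build, regulate or feed the proteasome, from lists chosen alongside the members, are given for comparison. Their counts stand beside the 13.1% of all genes called before induction, 26.7% at 48 h and 32.6% at 96 h. Of 11 measured assembly and regulation genes, 2 fell before induction: Uchl5, a deubiquitinase bound to the regulatory particle (-0.90 ± 0.16, limma adjusted p = 1.01e-04), and Pomp, the maturation factor of the core (-0.38 ± 0.11, 0.0112). At 48 h, 3 had risen and 2 had fallen. The core chaperones Psmg2 (0.81 ± 0.16, limma adjusted p = 1.54e-04) and Psmg3 (0.73 ± 0.14, 1.01e-04) were among those that rose, and Pomp passed at 96 and 144 h (0.35 and 0.53). Of 9 measured transcription factors and partners tied to proteasome genes, 1 rose and 4 fell at 48 h, and 2 rose and 5 fell at 96 h. Nfe2l1, the factor that induces subunit genes when the proteasome is impaired, was 0.42 above 0 h at 48 h (not called, 0.243), and had risen at 96 h (1.11 ± 0.25, limma adjusted p = 7.05e-04) and 144 h (0.97 ± 0.25, 0.00290). Its partner Mafk rose from 48 h (0.57 ± 0.12, limma adjusted p = 4.89e-04). The related factor Nfe2l2, a regulator of the oxidative stress response, fell at 24, 48, 96 and 144 h (-0.71 ± 0.12 at 48 h, limma adjusted p = 2.22e-05), as did Maf (-2.55 ± 0.27 at 48 h, 2.70e-09).

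Of 14 measured genes of antigen presentation and the interferon response, 4 rose before induction, as Psme1 did: Tapbp (0.74), Tap2 (0.58), H2-D1 (0.58) and B2m (0.55). Afterwards H2-D1, a class I heavy chain, fell at 24, 48, 96 and 144 h, by 0.87 on the log2 scale at 48 h. Tap1 and Ifit3 rose at 96 h, from group means at 0 h of 3.88 and 3.70, near the low end of the scale. Of 11 measured ubiquitin ligases linked to muscle, 4 rose and 3 fell at 48 h. Trim63, the atrophy ligase MuRF1, rose by 3.77 ± 0.29 (limma adjusted p = 9.11e-13) and Klhl41, a substrate adaptor of the sarcomere, by 4.97 ± 0.57 (1.31e-08). Fbxo32, the atrophy ligase atrogin, moved the other way: it rose before induction (1.15 ± 0.25, limma adjusted p = 8.96e-04) and fell at 48 h (-1.63 ± 0.25, 2.38e-06). Of 9 measured genes for ubiquitin and substrate delivery, 3 rose and 1 fell at 48 h. These were Ubqln4 (0.67), Nploc4 (0.60) and Rad23b on the rising side and the shuttle Ubqln2 (-0.71) on the falling side.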

How the data were processed

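The deposited table held 45101 probe sets on 48 arrays as log2 values that the authors made with RMA, a method of background correction, quantile normalization and probe set summary, per the submitters' processing notes; the RMA version and whether all arrays were run together are not given in the sources used here. After 64 control probe sets were set aside, 34945 named 1 gene symbol, 932 several and 9160 none in the platform annotation. The probe set with the highest mean stood for each of 18193 genes. The only probe set of Psme2 named 2 symbols and was not used, and protein data were not analysed here.

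All 16 groups entered 1 fit (limma 3.58.1 in R 4.3.3, 32 residual degrees of freedom) with p-values adjusted by Benjamini-Hochberg over all genes and called at 0.05. The fit was tested on simulated data. Values are given for every array for the called members of largest change in each comparison, up to 6 in each direction, and always for the catalytic, inducible and activator subunits, Psmd14, Psma8 and Psmb11, and for the main calls up to 4 called genes of each companion list are named. The members and lists were chosen with earlier results of these data known. The number of arrays, 3 a group, limits the precision.

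Whether replicate numbers pair the arrays was checked by correlating deviations from group means: in 14 of 21 pairs of groups every same-numbered pair correlated above 0.1, over a range of -0.22 to 0.72. Alternatives were a replicate block, trended and robust variances, another quantile normalization, centring on array medians or housekeeping genes, averaged or other probe sets, a filter at the median gene level, fits to the compared arrays alone and leaving out each array.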

Additional observations from a re-analysis of the deposited data

How the results depend on the processing

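With 3 arrays a group, changes of single subunits near 0.3 on the log2 scale depend on which arrays are used, no detection calls bound the low values of Psma8, Psmb8, Psmb9 and Psmb11, and the cycloheximide arrays differ in distribution from the rest. The cause of the changes below was not tested. The comparisons of 48 and 144 h with 24 h before induction were chosen after seeing the data. Counts of called members were 18 for 0 h against 24 h before (11 centred on housekeeping genes), 17 for 24 h (11 with only the arrays compared), 29 for 48 h, 25 for 96 h and 27 for 144 h. The last 3 stayed within 21 to 32, 18 to 30 and 19 to 31 over the other settings, and the F-test count of 25 within 24 to 29. With the replicate block the counts were 23 for 0 h against 24 h before, 20 for 24 h, 32 for 48 h, 30 for 96 h and 31 for 144 h. Leaving out 1 array gave 13 to 18, 11 to 16, 21 to 26, 20 to 23 and 20 to 29 in the same order, and 24 to 26 for the F-test. The lowest correlation of same-numbered arrays was 0.04 for 24 h before and 0 h, and -0.22 for 0 and 144 h. It was -0.15 for 48 and 144 h, 0.06 for 24 h before and 48 h, and -0.02 for untreated and treated arrays at 1 h. Block counts for these pairs, here and below, thus rest on a pairing that not all arrays showed. Shares of all genes called with the block are not given for them. For 144 h against 48 h the count of 1 became 3 with the block, 2 centred on array medians, 3 on housekeeping genes, 2 with averaged probe sets, 2 with the filter and 0 with only the arrays compared (0 to 1 with 1 array left out). Against 24 h before, the counts of 15 at 48 h and 15 at 144 h became 8 and 8 with only the arrays compared, 20 and 19 with the block, and 7 to 16 and 11 to 20 with 1 array left out. For cycloheximide at 1 h the count of 3 became 10 with the block, 0 after quantile normalization, 17 on array medians, 8 with averaged probe sets and 0 with only the arrays compared (1 to 7 with 1 array left out). At 3 h the count of 4 became 9, 11 after quantile normalization, 27 on array medians and 2 with only the arrays compared (2 to 4). The count of 0 for the interaction became 1 with the block and 1 on housekeeping genes (0 to 0 with 1 array left out). The count of 0 over the harvests from 0.5 to 12 h became 6 with the block, 1 after quantile normalization, 2 on array medians, 3 on housekeeping genes, 1 with averaged probe sets and 1 with the filter (0 to 1 with 1 array left out). Signs turned for Psma3 with averaged probe sets (-0.04 at 48 h, -0.09 at 144 h), for Psmd11 with cycloheximide at 1 h (-0.16 on array medians, -0.03 on housekeeping genes) and 3 h (-0.06 on array medians), and for Psmd5 on array medians (-0.04 at 1 h, -0.13 at 3 h).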

Other observations

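Within groups, the members' mean level moved with the replicate number. The mean over the 42 members lay above its group's mean on the arrays of replicate 1 in 13 of the 16 groups, on those of replicate 2 in 7 and on those of replicate 3 in 3, and these deviations ran from -0.11 to 0.11 on the log2 scale. Psmb7 and Psmb2, whose replicate 1 read highest at 0 h and 48 h, were called at no time in the fit without the block: Psmb2, a structural beta subunit, read 10.05, 9.29 and 9.11 at 0 h and 10.18, 10.13 and 9.52 at 48 h.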
